A study of Mus musculus with 12 samples.

Results

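The genes described here carry glucose into the cell, commit it to glycolysis and handle lactate at the end of the pathway. They are the glucose transporters *Slc2a1* (GLUT1) and *Slc2a3* (GLUT3), the hexokinases *Hk1* and *Hk2*, the phosphofructokinase isoforms *Pfkl*, *Pfkm* and *Pfkp*, the lactate dehydrogenase subunits *Ldha* and *Ldhb*, and the lactate exporter *Slc16a3* (MCT4). They were taken by name and not by a threshold on the values, and all 10 were found among the 21878 genes of the expression table. RNA was sequenced from mouse alveolar type 2 (AT2) cells, the surfactant-producing cells of the alveolus that also act as its progenitors, in 4 groups of 3 samples. AT2-PBS and AT2-BLM came from Atg5 f/f mice given PBS or bleomycin (BLM, which damages the epithelium of the alveoli, at 2 U/kg into the trachea). Atg5-/- AT2-PBS and Atg5-/- AT2-BLM came from Nkx2.1Cre;Atg5 f/f mice given the same, in which Cre made in the lung epithelium deletes *Atg5*, a gene needed to form autophagosomes. The mice were C57BL/6 and 8 to 12 weeks old. Cells were collected at day 14, a day that is not named for Atg5-/- AT2-PBS, and were sorted for EpCAM and against CD31, CD34, CD45, CD24 and Sca-1. Nkx2.1Cre acts in the whole lung epithelium and not in AT2 cells alone. Nothing in the labels says whether the 3 samples of a group are separate mice, so the p-values measure the spread between these samples.

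Glucose enters through the SLC2A transporters down its gradient and is trapped by hexokinases as glucose 6-phosphate, which can go on into glycolysis or into the pentose phosphate pathway. Phosphofructokinase makes the first step that belongs to glycolysis alone, and its L, M and P subunits form mixed tetramers. Lactate dehydrogenase interconverts pyruvate and lactate; tetramers rich in the A subunit are classically found in glycolytic tissue and those rich in the B subunit in oxidative tissue. AT2 cells are known for a high use of oxidative metabolism and of lactate, and MCT4 is best known from cells that export much lactate, such as activated macrophages. HIF-1, MYC and the ChREBP-MLX pair are known activators of several of these genes and bind E-box-like sites with the core ACGTG or CACGTG.

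The values are FPKM, fragments scaled by transcript length and by the mapped total, so that levels of different genes can be set side by side. The number of fragments is unknown, and steps between low values put the relative depth of the samples between 1 and 1.15. FPKM summed to between 390141 and 549169 per sample. The label of AT2 cells was checked against 11 AT2 markers, of which 10 were at 1 FPKM or more in every sample. *Sftpc*, the defining surfactant gene, was listed at 0 in 11 samples and at 112570 FPKM, 20.5% of the sample's sum, in AT2-BLM replicate 2, and a listed 0 can be a failed estimate. Islet markers summed to between 3150 and 3162 FPKM in AT2-PBS replicate 1 and Atg5-/- AT2-PBS replicates 1 and 2, and to at most 3.86 FPKM elsewhere. These 4 libraries stand apart, and changes of single genes that rest on them are given with and without them. Without them Atg5-/- AT2-PBS keeps replicate 3 alone, so changes against that group then rest on 1 library. Male mice were named for the injury experiments, but 4 Y-linked genes summed to at most 0.733 FPKM in 7 libraries and to between 14.2 and 20.9 FPKM in the other 5. The 7 were all 3 of Atg5-/- AT2-PBS, 2 of AT2-BLM and 1 each of AT2-PBS and Atg5-/- AT2-BLM. *Atg5* itself gave 12.5, 6.01 and 11.5 FPKM in AT2-PBS, against 9.24, 6.72 and 10.1 in Atg5-/- AT2-PBS. AT2-BLM had 11.1, 9.97 and 10.3 FPKM, against 8.84, 8.46 and 8.37 in Atg5-/- AT2-BLM. The log2 changes of *Atg5* with Atg5 loss were -0.14 with PBS and -0.26 with BLM, neither of them called, so the FPKM of the whole gene do not show the deletion. Of the genes of the sort markers, *Epcam* was between 102 and 179 FPKM in all samples. *Ly6a*, which encodes Sca-1, gave 7.36 to 16.8 FPKM in AT2-PBS and 325 to 777 in AT2-BLM. It gave 368 to 754 FPKM in Atg5-/- AT2-PBS and 63.1 to 984 in Atg5-/- AT2-BLM. *Cd24a* was at 25.7 to 35.8 FPKM in Atg5-/- AT2-PBS and at 2.96 to 11.0 FPKM elsewhere. The source of this RNA was not tested.

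All 12 samples entered 1 limma model of log2(FPKM + 1), which covered the 10675 genes that reached 1 FPKM in 3 or more samples. Genes with low values change more than this scale shows. A gene was called at the study's criterion, an unadjusted p under 0.05 with a fold change of at least 1.4, and the Benjamini-Hochberg adjusted p over all tested genes is given beside it. All 10 genes passed the filter. *Slc2a3* reached 1 FPKM in 4 samples and *Slc16a3* in 6, and the other 8 genes did so in all 12. The samples are mixtures of sorted cells, so a change in the share of a cell type and a change in RNA per cell cannot be told apart.

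Promoter sequences of the hexokinase and lactate dehydrogenase genes are shown because *Hk1* and *Hk2* rose with BLM and the balance of *Ldha* and *Ldhb* differed with it. Where a gene had several windows, 1 is printed. Each is the 250 bases before the start of a RefSeq transcript (RefSeq table of GRCm38.p6), placed by exact match in mm9 (NCBIM37) and written 5′ to 3′ on the strand of the gene. Capitals mark ACGTG or its reverse complement CACGT, with overlapping matches joined, as in CACGTG.
Hk1, chr10:61842657-61842906, minus strand: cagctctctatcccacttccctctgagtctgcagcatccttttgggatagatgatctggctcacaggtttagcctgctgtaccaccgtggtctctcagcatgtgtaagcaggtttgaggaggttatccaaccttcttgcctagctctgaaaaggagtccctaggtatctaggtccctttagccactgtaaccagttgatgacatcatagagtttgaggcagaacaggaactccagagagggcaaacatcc
Hk2, chr6:82724449-82724698, minus strand: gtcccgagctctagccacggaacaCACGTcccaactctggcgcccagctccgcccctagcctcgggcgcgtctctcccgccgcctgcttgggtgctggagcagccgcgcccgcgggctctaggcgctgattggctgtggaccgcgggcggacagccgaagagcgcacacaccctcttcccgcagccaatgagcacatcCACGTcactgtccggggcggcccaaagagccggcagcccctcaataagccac
Ldha, chr7:54100924-54101173, plus strand: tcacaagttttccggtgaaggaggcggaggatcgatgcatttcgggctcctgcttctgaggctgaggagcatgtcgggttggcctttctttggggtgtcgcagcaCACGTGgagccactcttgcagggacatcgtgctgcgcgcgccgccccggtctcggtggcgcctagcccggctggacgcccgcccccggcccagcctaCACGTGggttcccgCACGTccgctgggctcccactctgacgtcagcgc
Ldhb, chr6:142456478-142456727, minus strand: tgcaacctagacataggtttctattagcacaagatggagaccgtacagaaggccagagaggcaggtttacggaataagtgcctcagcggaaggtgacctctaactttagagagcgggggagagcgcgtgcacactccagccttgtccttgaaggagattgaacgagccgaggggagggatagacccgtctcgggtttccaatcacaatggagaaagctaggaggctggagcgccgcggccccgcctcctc
The *Hk2* sequence held 2 such stretches and the *Ldha* sequence 3, while the *Hk1* and *Ldhb* sequences held 0. The other *Ldha* window and the other *Hk1* window, which are not printed, held 0 as well. The genes described here had 14 windows, of which 6 held at least 1, against 16.6% of 32851 promoter windows of this length. By gene, 5 of the 9 with a window held it in at least 1 window, against 18.5% of 27025 genes. These were *Slc2a1*, *Hk2*, *Pfkm*, *Ldha* and *Slc16a3*, and *Slc2a3* had no window. These matches describe letters in a window and not bound sites.

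The genes differed widely in level. *Ldha* (chromosome 7, 54096845 to 54110997, plus strand) and *Ldhb* (chromosome 6, 142438769 to 142456477, minus strand) were far above the rest, with means over the 12 samples of 469 and 444 FPKM. *Pfkl* (18.0 FPKM), *Slc2a1* (17.2 FPKM) and *Hk1* (12.6 FPKM) formed a middle range, followed by *Hk2* (7.70 FPKM), *Pfkp* (5.28 FPKM) and *Pfkm* (3.94 FPKM). *Slc16a3* (3.01 FPKM) and *Slc2a3* (0.674 FPKM) were lowest, and the mean of *Slc16a3* came mostly from Atg5-/- AT2-PBS. The sample ranges of *Ldha* and *Ldhb* overlapped, as did those of *Pfkl*, *Slc2a1* and *Hk1*. *Ldha* has processed copies in the mouse genome, and reads shared with them could not be told apart in FPKM.

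**Figure D1:**
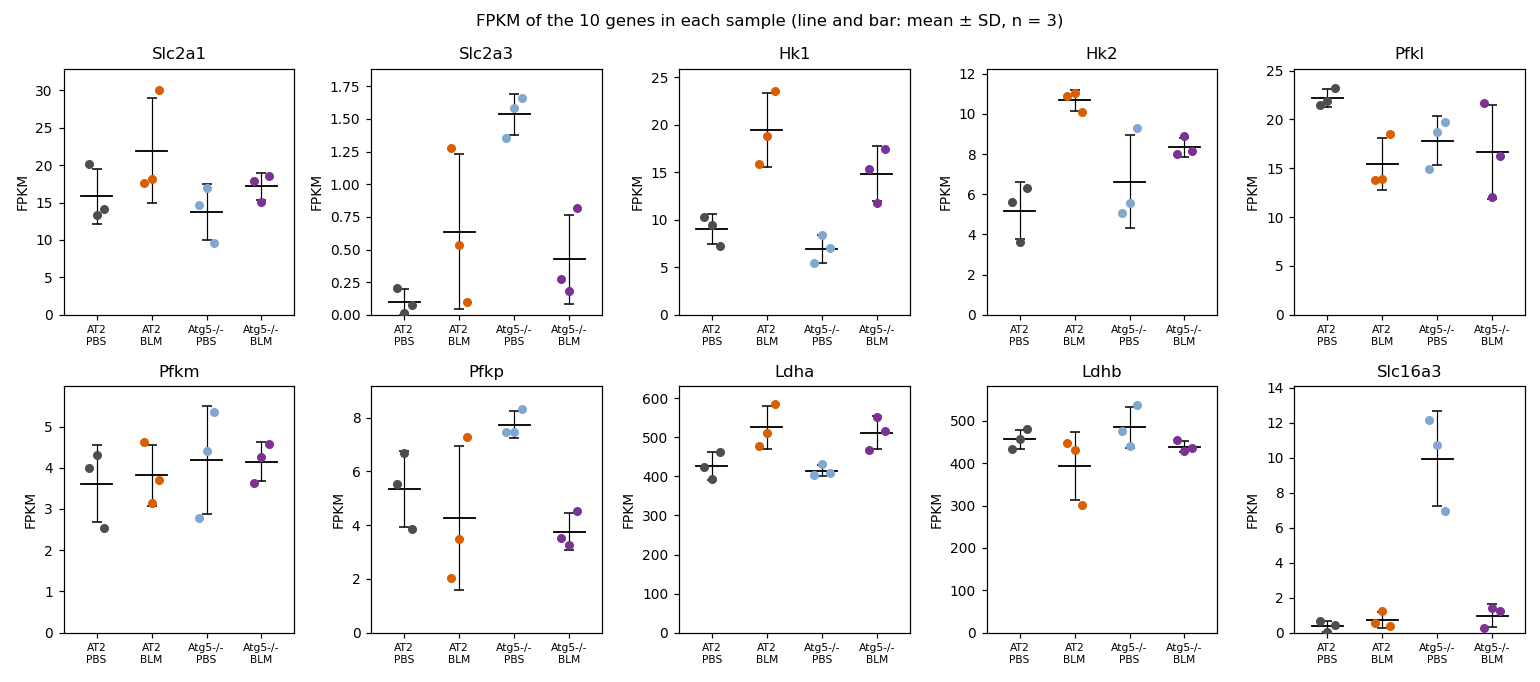
FPKM of each gene (y axis, linear from 0) in each sample (points) of the 4 groups (x axis), with the group mean as a line and the SD as a bar (n = 3). *Hk1* and *Hk2* sit higher in AT2-BLM than in AT2-PBS without overlap, and *Slc16a3* is at 6.94 FPKM or more in Atg5-/- AT2-PBS alone and at most at 1.44 FPKM elsewhere.

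*Slc2a1* (chromosome 4, 118781316 to 118809935, plus strand) encodes GLUT1, the basal glucose transporter of many cells. AT2-PBS replicates 1 to 3 had 20.1, 13.3 and 14.1 FPKM, against 17.7, 18.1 and 30.0 in AT2-BLM. Atg5-/- AT2-PBS had 14.7, 16.9 and 9.65 FPKM, against 17.9, 15.1 and 18.5 in Atg5-/- AT2-BLM. The ranges overlapped in all 4 comparisons, and *Slc2a1* was called in none. Its log2 change with BLM was 0.43 (95% interval -0.11 to 0.97) in Atg5 f/f cells and 0.33 (-0.21 to 0.87) in Atg5-/- cells. In Atg5 f/f cells it was called without AT2-PBS replicate 1 (0.60) and without the 4 libraries that stand apart (0.71), and in Atg5-/- cells also without the latter (0.76).

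*Slc2a3* (chromosome 6, 122677827 to 122751658, minus strand) encodes GLUT3, a high-affinity transporter known from neurons and leukocytes. AT2-PBS had 0.204, 0.0123 and 0.0761 FPKM, against 1.36, 1.58 and 1.66 in Atg5-/- AT2-PBS. With BLM it was at 1.27, 0.536 and 0.102 FPKM in Atg5 f/f cells and at 0.278, 0.181 and 0.816 FPKM in Atg5-/- cells. Every Atg5-/- AT2-PBS sample was above every other sample of the study. *Slc2a3* reached the minimum of the filter in these 3 samples and in 1 other, so it was tested only because it was high in Atg5-/- AT2-PBS, and its values in the filtered fit are a description. They were log2 changes of 1.21 with Atg5 loss in PBS and of -0.86 with BLM in Atg5-/- cells. In the fit with no filter on low values, where that choice is not made, the limma adjusted p of these changes was 0.0103 and 0.0677. The change with BLM in Atg5 f/f cells, 0.52, was not called, but it was with a pseudocount of 0.1 (1.62) and without AT2-BLM replicate 3 (0.77). *Slc2a3* fell below the filter, and has no value, without the 4 libraries that stand apart.

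*Hk1* (chromosome 10, 61731603 to 61842656, minus strand), the hexokinase of most tissues, rose with BLM in both genotypes. AT2-PBS had 10.3, 9.46 and 7.22 FPKM, against 15.8, 18.9 and 23.5 in AT2-BLM. In Atg5-/- AT2-PBS the values were 5.42, 8.39 and 7.08 FPKM, against 15.4, 11.8 and 17.4 in Atg5-/- AT2-BLM. The PBS and BLM ranges did not overlap in either genotype. The log2 change was 1.03 in Atg5 f/f cells (standard error 0.21, limma adjusted p = 0.00848) and 1.00 in Atg5-/- cells (standard error 0.21, limma adjusted p = 0.0119). The difference between these responses was -0.0317, with a 95% interval of -0.68 to 0.62. The log2 differences of *Hk1* with Atg5 loss were -0.33 with PBS and -0.36 with BLM, neither of them called, although the former was called after scaling to a common FPKM sum (-0.57).

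*Hk2* (chromosome 6, 82675019 to 82724448, minus strand), the inducible hexokinase of insulin-sensitive and proliferating cells, rose with BLM in Atg5 f/f cells. AT2-PBS had 5.60, 3.62 and 6.32 FPKM, against 10.9, 11.04 and 10.1 in AT2-BLM. Atg5-/- AT2-PBS had 5.04, 5.54 and 9.27 FPKM, against 8.003, 8.88 and 8.15 in Atg5-/- AT2-BLM. In Atg5 f/f cells the ranges did not overlap and the log2 change was 0.94 (standard error 0.22, limma adjusted p = 0.0151). In Atg5-/- cells the ranges overlapped, with Atg5-/- AT2-PBS replicate 3 the highest of its 6 samples, and the log2 change of 0.33 was not called. It was called without that replicate (0.57) and was -0.14 without the 4 libraries that stand apart, which leaves that replicate as the only Atg5-/- AT2-PBS sample. The difference between the responses of both genotypes, -0.61 (95% interval -1.29 to 0.0744), was not called. It was called without AT2-PBS replicate 3 (-0.74), without Atg5-/- AT2-PBS replicate 1 (-0.76) and without the 4 libraries (-1.12).

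The summed FPKM of *Hk1* and *Hk2* was 14.2 ± 1.505 in AT2-PBS and 30.1 ± 3.46 in AT2-BLM (SD, n = 3 each). It was 13.6 ± 2.96 in Atg5-/- AT2-PBS and 23.2 ± 2.46 in Atg5-/- AT2-BLM, again with no overlap between PBS and BLM. The median log2 change of all genes with BLM in Atg5 f/f cells was 0.17, and relative to it *Hk1* rose by 0.85 and *Hk2* by 0.77. Both remained called after quantile normalization, median-ratio scaling and scaling to a common FPKM sum, with log2 changes between 0.74 and 0.85, but in the last of these neither passed the adjustment (limma adjusted p 0.0573 for *Hk1* and 0.0826 for *Hk2*). Without the 4 libraries that stand apart both were still called, at 1.13 and 0.98, with limma adjusted p of 0.0622 and 0.0785, and so was *Hk1* in Atg5-/- cells (0.96, limma adjusted p = 0.32). Markers of other epithelial cells moved with BLM as well. Of the 7 tested markers of alveolar type 1 (AT1) cells, 4 were called higher in Atg5 f/f cells and 5 in Atg5-/- cells. Their summed FPKM went from between 1872 and 2276 in AT2-PBS to between 2359 and 3479 in AT2-BLM, and from between 1449 and 1744 to between 2187 and 2574 in Atg5-/- cells. Of the 5 tested airway markers 4 and 5 were called lower, and of the 10 tested AT2 markers 3 were called lower and 1 higher in Atg5 f/f cells and 1 higher in Atg5-/- cells. The part of these cells in the results on *Hk1*, *Hk2* and the balance of *Ldha* and *Ldhb* was not tested.

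**Figure D2:**
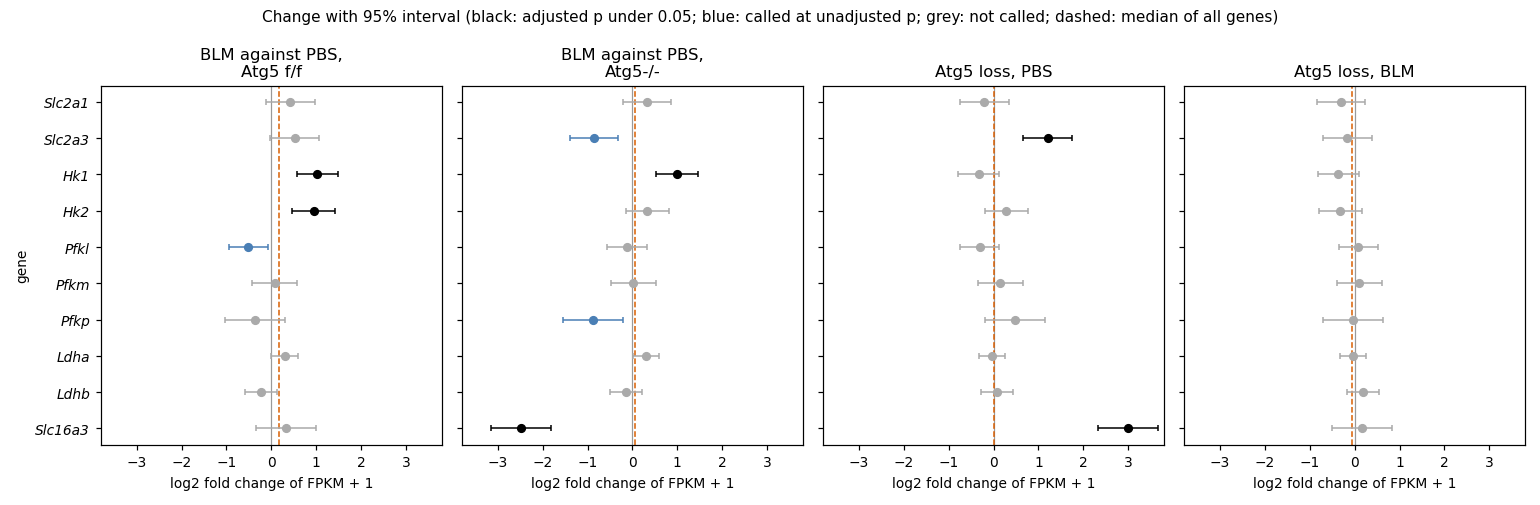
Log2 change of FPKM + 1 (x axis) with its 95% interval for each gene (y axis) in 4 comparisons, black for an adjusted p under 0.05, blue for a call at the unadjusted p and grey for no call, with the median of all genes as a dashed line. *Hk1* is at 1.03 and 1.00 with BLM in both genotypes, *Slc16a3* at 2.99 with Atg5 loss in PBS, and no gene is called for Atg5 loss with BLM.

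*Pfkl* (chromosome 10, 77449692 to 77472828, minus strand), the liver-type phosphofructokinase subunit, was the only gene of the 10 called lower with BLM in Atg5 f/f cells. AT2-PBS had 21.4, 21.9 and 23.2 FPKM, against 13.8, 13.9 and 18.5 in AT2-BLM, ranges that did not overlap. In Atg5-/- AT2-PBS the values were 14.95, 18.7 and 19.8 FPKM, against 21.7, 12.0 and 16.3 in Atg5-/- AT2-BLM. The log2 change was -0.51 in Atg5 f/f cells (limma adjusted p = 0.0989) and -0.12 in Atg5-/- cells, where it was not called. The call was lost without AT2-PBS replicate 3 (-0.48), AT2-BLM replicate 1 (-0.44) or AT2-BLM replicate 2 (-0.45), and without the 4 libraries that stand apart (-0.47). The difference between the genotypes, 0.39, was not called, but was after quantile normalization (0.59) and without Atg5-/- AT2-BLM replicate 2 (0.59).

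*Pfkm* (chromosome 15, 97923020 to 97962878, plus strand), the muscle-type subunit, stayed between 2.54 and 5.36 FPKM in all 12 samples. Its group means were 3.62 ± 0.943 FPKM in AT2-PBS, 3.82 ± 0.741 in AT2-BLM, 4.18 ± 1.31 in Atg5-/- AT2-PBS and 4.15 ± 0.477 in Atg5-/- AT2-BLM (SD, n = 3 each). No comparison called it, and its 4 log2 changes lay between 0.0213 and 0.15.

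*Pfkp* (chromosome 13, 6579014 to 6648023, minus strand), the platelet-type subunit, was at 5.53, 6.68 and 3.87 FPKM in AT2-PBS and at 2.05, 3.48 and 7.27 FPKM in AT2-BLM. Atg5-/- AT2-PBS had 7.46, 7.46 and 8.30 FPKM, against 3.51, 3.25 and 4.52 in Atg5-/- AT2-BLM. Every Atg5-/- AT2-PBS sample was above every other sample. BLM in Atg5-/- cells called it lower (log2 change -0.88, limma adjusted p = 0.102), a call lost without the 4 libraries that stand apart (-0.98). In Atg5 f/f cells the change of -0.37 was not called, but it was without AT2-BLM replicate 3, the highest of that group (-0.76). With Atg5 loss in PBS it was 0.48 higher and not called, and called with Y-linked expression as a covariate (0.74). Leukocyte markers, described below, summed to between 1247 and 2639 FPKM in Atg5-/- AT2-PBS and to at most 736 FPKM elsewhere. The part of other cells in the results on *Pfkp* was not tested.

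*Ldha*, which makes the A (muscle) subunit, gave 424, 392 and 462 FPKM in AT2-PBS, against 479, 512 and 585 in AT2-BLM. In Atg5-/- AT2-PBS the values were 405, 431 and 407 FPKM, against 468, 551 and 517 in Atg5-/- AT2-BLM. Every BLM sample was above every PBS sample of the same genotype. The log2 change was 0.30 in Atg5 f/f cells (limma adjusted p = 0.144) and 0.30 in Atg5-/- cells (limma adjusted p = 0.221). Both had an unadjusted p under 0.05 but were under the fold change of the call.

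*Ldhb*, which makes the B (heart) subunit, gave 435, 457 and 480 FPKM in AT2-PBS, against 448, 432 and 301 in AT2-BLM. Atg5-/- AT2-PBS had 475, 442 and 537 FPKM, against 454, 429 and 435 in Atg5-/- AT2-BLM. The ranges overlapped, and the log2 changes with BLM of -0.24 in Atg5 f/f cells and -0.14 in Atg5-/- cells were not called. The summed FPKM of *Ldha* and *Ldhb* had group means between 883 and 951.

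Within a sample, the share of an isoform does not depend on how the sample was scaled. *Ldhb* made up 50.6%, 50.9% and 53.8% of the sum of *Ldha* and *Ldhb* in AT2-PBS, and 34.0%, 45.7% and 48.3% in AT2-BLM (lowest to highest). It made up 50.6%, 54.0% and 56.8% in Atg5-/- AT2-PBS and 43.8%, 45.7% and 49.2% in Atg5-/- AT2-BLM. Every PBS sample was above every BLM sample. The share was lower with BLM by 9.10 percentage points in Atg5 f/f cells and by 7.57 points in Atg5-/- cells. The mean of both differences had p = 0.005 in an exact two-sided permutation test within genotypes, the smallest p that its 400 labelings can give, or 0.04 adjusted over the 8 share tests. Leaving out 1 sample at a time, the mean difference lay between -9.75 and -6.15 points. Without the 4 libraries that stand apart it was -10.9 points (exact permutation p = 0.0417, adjusted p = 0.333). With Atg5 loss the share was 2.80 points higher on average (exact permutation p = 0.295).

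The other 3 shares did not pass. *Hk2* made up 36.6% ± 9.57 of *Hk1* and *Hk2* in AT2-PBS, 35.9% ± 5.43 in AT2-BLM, 48.2% ± 8.46 in Atg5-/- AT2-PBS and 36.3% ± 5.84 in Atg5-/- AT2-BLM (SD, n = 3 each). *Pfkp* made up 17.1% ± 3.68, 17.2% ± 7.35, 26.3% ± 2.90 and 15.5% ± 2.98 of the 3 phosphofructokinase genes in the same order of groups. *Slc2a3* was 10.6% ± 3.57 of the sum of both transporters in Atg5-/- AT2-PBS and at most 3.31% on average in the other groups. The unadjusted p of these 6 tests lay between 0.07 and 0.285 by exact permutation, and the adjusted p between 0.28 and 0.295.

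**Figure D3:**
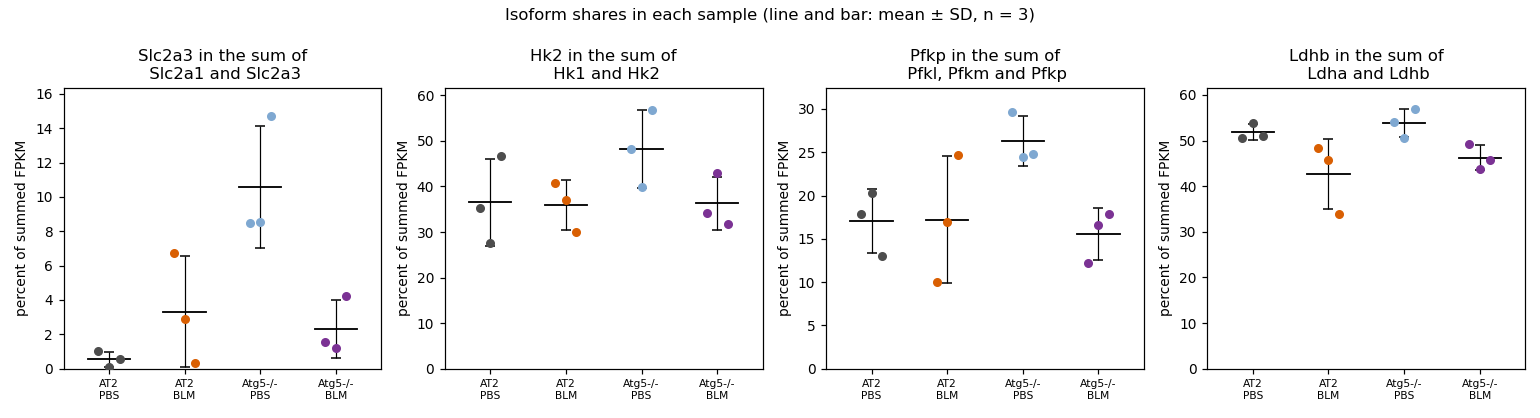
Share of 1 isoform in the summed FPKM of its family (y axis, percent, from 0) in each sample (points) of the 4 groups, with mean and SD (n = 3). In the panel of *Ldhb* every PBS sample is at 50.6% or more and every BLM sample at 49.2% or less.

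*Slc16a3* (chromosome 11, 120809794 to 120822182, plus strand) had the largest change of the 10 genes. AT2-PBS had 0.643, 0.0416 and 0.429 FPKM, against 12.2, 10.8 and 6.94 in Atg5-/- AT2-PBS. AT2-BLM had 0.531, 1.27 and 0.386 FPKM, against 0.253, 1.44 and 1.26 in Atg5-/- AT2-BLM. The 3 Atg5-/- AT2-PBS samples were above all others, which overlapped each other. With Atg5 loss in PBS it rose by a log2 change of 2.99 (standard error 0.31, limma adjusted p = 6.24e-05), and with BLM in Atg5-/- cells it fell by 2.49 on the log2 scale (standard error 0.31, limma adjusted p = 0.000545). These comparisons share the Atg5-/- AT2-PBS samples. Without the 4 libraries that stand apart the changes were 2.70 and -2.06, both called, but only the former passed the adjustment (limma adjusted p 0.0132 and 0.0955), with 1 Atg5-/- AT2-PBS sample left. With Y-linked expression as a covariate they were 3.00 and -2.50.

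Leukocyte markers moved with *Slc16a3* and *Slc2a3*, although CD45+ cells were sorted out. The 14 markers, all present in the table, summed to between 30.5 and 171 FPKM in AT2-PBS and to between 191 and 287 FPKM in AT2-BLM. They summed to between 1247 and 2639 FPKM in Atg5-/- AT2-PBS and to between 90.8 and 736 FPKM in Atg5-/- AT2-BLM. All 13 tested markers were called higher with Atg5 loss in PBS, all of them also by adjusted p, and all 13 were called lower with BLM in Atg5-/- cells. Of these, *Ptprc* and *Mrc1* passed the filter only through Atg5-/- AT2-PBS, so their calls follow from the filter. With BLM in Atg5 f/f cells 7 of the 13 were called higher, and with Atg5 loss in BLM 0 were called by limma. *Ptprc*, which encodes CD45, averaged 8.004 ± 0.462 FPKM in Atg5-/- AT2-PBS, against 0.232 ± 0.337 FPKM in AT2-PBS (SD, n = 3 each). For airway, fibroblast, liver and erythroid markers, 4 of 5, 5 of 5, 6 of 6 and 3 of 3 tested were also called higher with Atg5 loss in PBS. The fibroblast marker *Lum* passed the filter only through Atg5-/- AT2-PBS. Airway markers summed to between 23408.5 and 85012 FPKM in Atg5-/- AT2-PBS and to between 4968 and 11774 FPKM in AT2-PBS. They summed to between 882 and 4973 FPKM in AT2-BLM and to between 1174 and 2183 FPKM in Atg5-/- AT2-BLM. The airway marker *Scgb1a1* was the gene with the most FPKM in Atg5-/- AT2-PBS replicates 1 and 2 (10.1% and 16.3% of the sum). The genes most like *Slc16a3* over the 12 samples were *Tnfaip2* (Pearson r = 0.988), *Il1rn* (0.983) and *Themis2* (0.982), and those most like *Slc2a3* were *P2ry13* (0.937), *Amica1* (0.933) and *Ccl22* (0.923), out of 10674 genes compared. The part of other cells in these results was not tested.

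**Figure D4:**
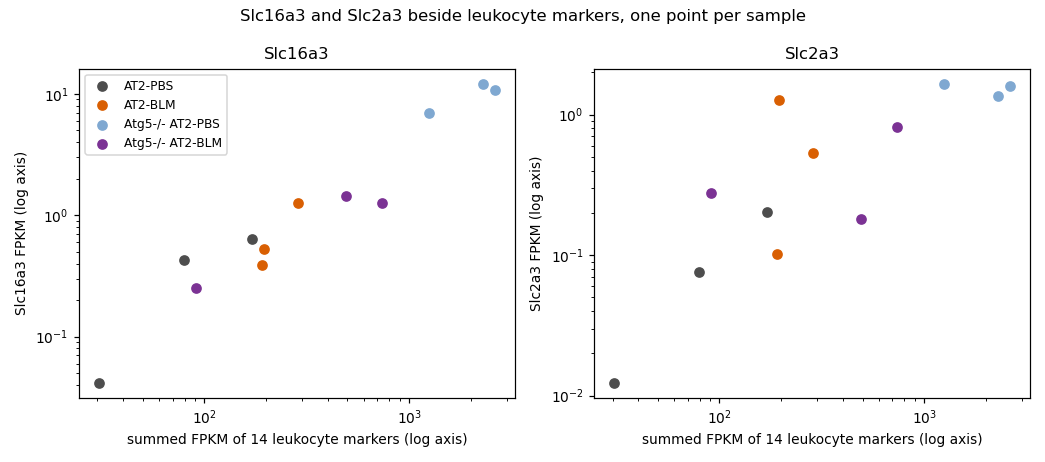
FPKM of *Slc16a3* (left) and *Slc2a3* (right) on a log y axis against the summed FPKM of 14 leukocyte markers on a log x axis, with a point for each of the 12 samples coloured by group. The 3 Atg5-/- AT2-PBS samples, at 1247 FPKM or more of leukocyte markers, hold the highest values of both genes.

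By comparison, BLM in Atg5 f/f cells called 3 of the 10 genes against 28.4% of all tested genes, and 2 by adjusted p, against 17.8%. *Hk1* and *Hk2* were higher (20.6% of all genes) and *Pfkl* was lower (7.77%). The ranges of the 2 groups were apart for 4 genes, against 40.2% of all genes. The median log2 change was 0.31 over the 10 genes and 0.17 over all genes. BLM in Atg5-/- cells called 4, against 18.4% of all genes, and 2 by adjusted p, *Hk1* and *Slc16a3*, against 8.67%. *Hk1* was higher (7.66% of all genes) and *Slc2a3*, *Pfkp* and *Slc16a3* were lower (10.7%). Ranges did not overlap for 5 of the 10, against 24.9% of all genes. The median was -0.0487 over the 10 genes and 0.0633 over all. Atg5 loss with PBS called *Slc2a3* and *Slc16a3*, 2 of the 10, against 19.3% of all genes and 14.1% called higher. *Slc16a3* passed the adjustment, as did 11.2% of all genes. The calls of *Slc2a3* are counted in these comparisons but follow from the filter, as said above. With Atg5 loss in PBS ranges did not overlap for 4 of the 10, against 28.9%. The shares of the 10 genes called with BLM in Atg5 f/f cells and with Atg5 loss in PBS were thus near those of all genes.

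Atg5 loss with BLM called 0 of the 10 genes by limma, also 0 at an unadjusted p under 0.05 without the fold limit, against 5.16% of all genes at the call and 0.00937% by adjusted p. The log2 changes lay between -0.36 for *Hk1* and 0.18 for *Ldhb*. *Hk2* was the only gene whose ranges did not overlap, at 8.003 to 8.88 FPKM in Atg5-/- AT2-BLM and 10.1 to 11.04 FPKM in AT2-BLM, against 13.4% of all genes. Its log2 change was -0.32, with a 95% interval of -0.80 to 0.16. For *Slc2a1* the interval was -0.84 to 0.24 and for *Hk1* -0.82 to 0.0983, so a fall by 1.4-fold was within all 3.

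The difference of the BLM response between the genotypes called *Slc2a3* and *Slc16a3*, both lower, against 20.2% of all genes and 15.2% called lower. It was -2.82 for *Slc16a3* (standard error 0.43, limma adjusted p = 0.00316), which passed the adjustment, as did 7.89% of all genes. Without the 4 libraries that stand apart it was -2.32 for *Slc16a3* (limma adjusted p = 0.096). For *Slc2a3* it was -1.37, a description for the same reason, and with no filter on low values it missed the adjustment (limma adjusted p = 0.0521). For *Ldha* the difference was 0.00211, with a 95% interval of -0.42 to 0.42.

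For the other 8 genes the closest patterns over the 12 samples were those of *Psmd3* for *Hk1* (Pearson r = 0.970), *Med21* for *Hk2* (0.9754), *Nudt11* for *Ldha* (0.974), *Pxmp2* for *Ldhb* (0.915), *Mtmr2* for *Slc2a1* (0.933), *Pan2* for *Pfkl* (0.913), *Fbxl15* for *Pfkm* (0.843) and *Sptssa* for *Pfkp* (0.877). These are descriptions over samples that share their groups.

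Other genes of glucose metabolism were read from lists chosen by role. Their counts with BLM in Atg5 f/f cells stand against 20.6% of all genes called higher and 7.77% called lower, and their medians against 0.17 over all genes. In the comparisons that use Atg5-/- AT2-PBS, markers of other cells moved too. All 6 liver and all 13 leukocyte markers tested were called higher with Atg5 loss in PBS, 4 and 13 were called lower with BLM in Atg5-/- cells, and 6 and 13 were lower for the difference between the genotypes. The calls of *Ptprc* and *Mrc1* among them follow from the filter. With BLM in Atg5 f/f cells, 4 of the 6 liver and 7 of the 13 leukocyte markers were called higher, against 20.6% of all genes. Liver markers summed to between 3.34 and 419 FPKM in AT2-PBS and to between 164 and 580 FPKM in AT2-BLM. The part of other cells in the results on *Fbp1*, *Pygl* and the other genes given below was not tested in any of these comparisons. Of 11 other glucose transporter genes, 4 were tested, and *Slc5a1*, the sodium-coupled glucose transporter SGLT1, rose with BLM in both genotypes. AT2-PBS had 3.53, 3.53 and 2.10 FPKM, against 22.7, 24.5 and 12.2 in AT2-BLM. In Atg5-/- AT2-PBS the values were 8.87, 7.78 and 5.42 FPKM, against 18.0, 15.1 and 26.7 in Atg5-/- AT2-BLM. The ranges were apart in both genotypes, with log2 changes of 2.32 (limma adjusted p = 0.000959) and 1.31 (limma adjusted p = 0.015). It also rose with Atg5 loss in PBS, by 1.04 (limma adjusted p = 0.037).

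*Hkdc1*, another hexokinase, gave 10.7, 5.06 and 5.70 FPKM in AT2-PBS, against 12.4, 15.5 and 15.3 in AT2-BLM, a rise by 0.97 on the log2 scale (limma adjusted p = 0.0249). In Atg5-/- cells its mean was 7.76 ± 1.31 FPKM with PBS and 15.1 ± 4.08 FPKM with BLM (SD, n = 3 each). Of the 6 tested genes that set fructose bisphosphate levels, 2 were called higher with BLM in Atg5 f/f cells (median 0.57 on the log2 scale), *Tigar*, a p53 target that lowers fructose 2,6-bisphosphate, among them (0.84, limma adjusted p = 0.0311). *Fbp1*, the gluconeogenic phosphatase that runs against phosphofructokinase, rose with Atg5 loss in PBS (2.44, limma adjusted p = 0.0132), as liver and leukocyte markers did.

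Of the 11 other glycolytic enzymes tested, 8 were called higher with BLM in Atg5 f/f cells and 1 lower, with a median log2 change of 0.63 against 0.17 over all genes. Those with the largest changes among the ones that passed the adjustment act late in the pathway. *Eno1* (enolase) was at 38.2 FPKM on average in AT2-PBS and at 189 FPKM in AT2-BLM, a rise by 2.24 (limma adjusted p = 0.00718), and has a near-identical copy, *Eno1b*, that can share its reads. *Pgam2* and *Pgam1*, the phosphoglycerate mutases, rose by 1.64 and 0.92 (limma adjusted p 0.0306 and 0.00681), and *Pgk1*, which makes the first ATP of the pathway, rose by 0.89 (limma adjusted p = 0.0126). *Pgam2* gave 1.27, 0.780 and 0.656 FPKM in AT2-PBS, against 7.55, 4.53 and 3.24 in AT2-BLM. Liver markers summed to 419, 5.43 and 3.34 FPKM and to 580, 243 and 164 FPKM in the same samples. Of 6 tested muscle markers, 1 was called higher and 1 lower, against 20.6% and 7.77% of all genes. The part of other cells in the change of *Pgam2* was not tested. In Atg5-/- cells 0 of the 11 glycolytic enzymes were called higher with BLM and 2 lower by limma, against 7.66% and 10.7% of all genes, with a median of -0.0745 against 0.0633. Atg5 loss with PBS called 3 of the 11 higher, against 14.1% of all genes (median 0.38, against 0.0188 over all genes). Atg5 loss with BLM called 3 of the 11 lower (median -0.29, against -0.0488). There 5.16% of all genes were called in either direction, and 333 of all 10675 were called lower. The difference between the genotypes was called lower for 6, against 15.2% of all genes, with *Eno1* among those that passed the adjustment (-2.54, limma adjusted p = 0.0289).

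Of the 13 tested genes of pyruvate entry into mitochondria, 2 were called higher with BLM in Atg5 f/f cells and 3 lower, all 5 also by adjusted p, with a median of 0.28. The lower ones were the kinases *Pdk1* (-1.05, limma adjusted p = 0.0444) and *Pdk2* (-1.02, limma adjusted p = 0.0128), which inactivate pyruvate dehydrogenase, and the phosphatase *Pdp2* (-1.08, limma adjusted p = 0.0145), which reactivates it. *Pdk2* gave 49.6, 43.3 and 43.6 FPKM in AT2-PBS, against 24.3, 21.7 and 19.7 in AT2-BLM. *Dlat*, the acetyltransferase of the complex, rose (0.77, limma adjusted p = 0.0154). *Pdk4*, a kinase induced by fasting, fell with BLM in Atg5-/- cells (-1.51, limma adjusted p = 0.0169). Of the 5 other lactate and monocarboxylate genes tested, *Ldhd*, the mitochondrial D-lactate dehydrogenase, rose with BLM in Atg5 f/f cells (0.85, limma adjusted p = 0.045) and 1 was called lower, with a median of -0.18.

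Of the 9 tested glycogen genes, 4 were called higher with BLM in Atg5 f/f cells, and *Pygl*, the liver glycogen phosphorylase (0.85, limma adjusted p = 0.0169), *Pgm2*, a phosphoglucomutase (0.84, limma adjusted p = 0.0049), and *Gyg*, the primer of glycogen (0.67, limma adjusted p = 0.0162), passed the adjustment. The median of the 9 was 0.22. *Pygl* also rose with Atg5 loss in PBS (1.11, limma adjusted p = 0.00295), and its response to BLM differed between the genotypes by -1.34 (limma adjusted p = 0.0159), comparisons in which liver and leukocyte markers moved the same way. *Gyg* likewise rose with Atg5 loss in PBS (0.80, limma adjusted p = 0.00467), and its response to BLM differed by -0.85 (limma adjusted p = 0.0392). *Pgm2* rose with BLM in Atg5-/- cells too (0.77, limma adjusted p = 0.00814).

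**Figure D5:**
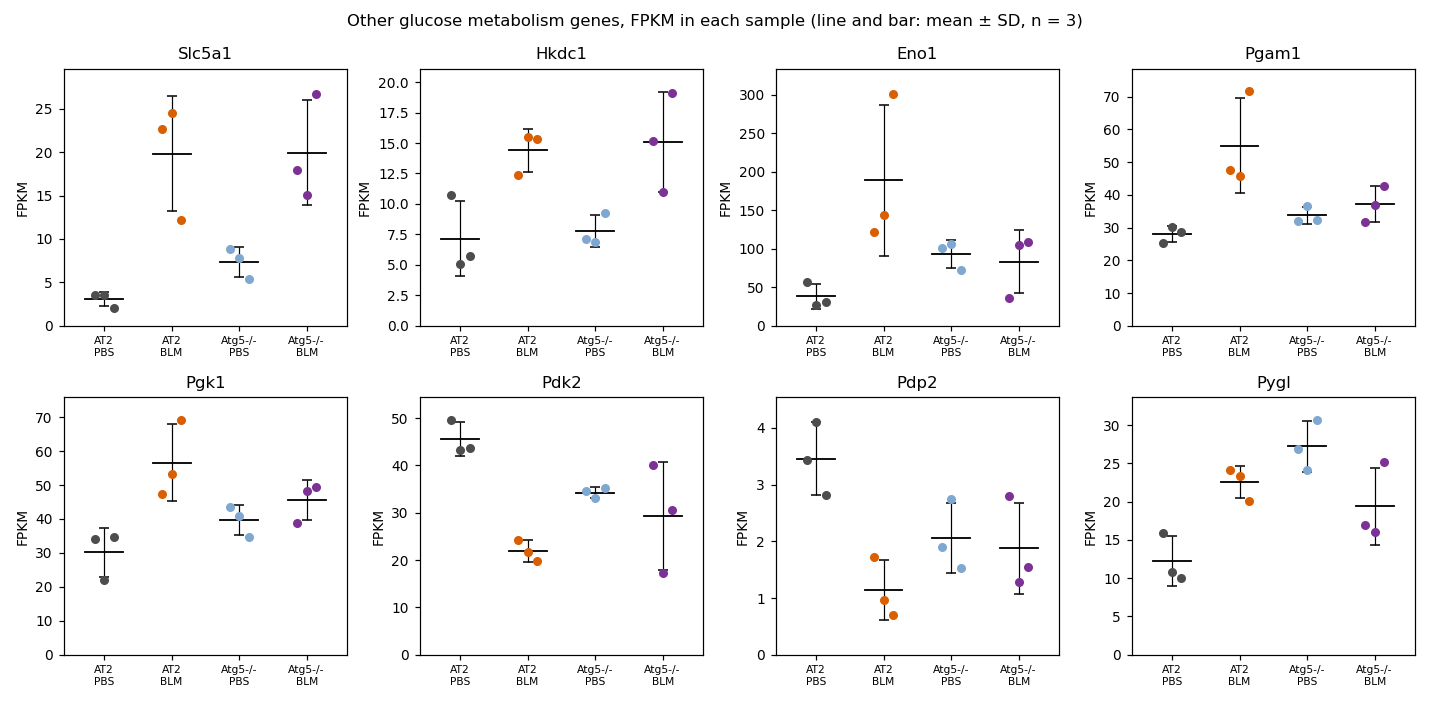
FPKM (y axis, linear from 0) of 8 other genes of glucose metabolism in each sample (points) of the 4 groups, with mean and SD (n = 3). *Slc5a1* is at 12.2 FPKM or more in every BLM sample and at 8.87 FPKM or less in every PBS sample, and *Pdk2* is at 24.3 FPKM or less in AT2-BLM and at 43.3 FPKM or more in AT2-PBS.

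Of the 13 tested regulators, 3 were called higher with BLM in Atg5 f/f cells and 2 lower, with a median of -0.0606. *Mlxipl*, which encodes the glucose-sensing factor ChREBP, fell (-1.04, limma adjusted p = 0.00887), while its partner *Mlx* rose (0.92, limma adjusted p = 0.00704). *Egln1*, the oxygen sensor that marks HIF for degradation, fell (-0.98, limma adjusted p = 0.038), and *Trp53* rose (0.72, limma adjusted p = 0.0118). *Myc* fell with BLM in Atg5-/- cells (-2.10, limma adjusted p = 0.0126), from 14.4 to 2.71 FPKM on average. *Txnip*, a glucose-induced gene whose product limits glucose uptake, rose with Atg5 loss in PBS (0.94, limma adjusted p = 0.026). Of 11 hypoxia-induced genes outside glycolysis, 2 were called higher and 1 lower with BLM in Atg5 f/f cells, with *P4ha2*, a collagen prolyl hydroxylase, past the adjustment (0.91, limma adjusted p = 0.00237) and a median of -0.16. In Atg5-/- cells *Vegfa* rose with BLM (0.91, limma adjusted p = 0.0297). Without the 4 libraries that stand apart, *Tigar* (0.78) and *Egln1* (-0.98) lost their calls with BLM in Atg5 f/f cells, and *Slc5a1* (0.78) lost its call with Atg5 loss in PBS. The other changes named with BLM in Atg5 f/f cells were still called. Of these, *Eno1*, *Slc5a1* and *P4ha2* passed the adjustment (limma adjusted p 0.035, 0.021 and 0.0376) and the others did not. The other changes that use Atg5-/- AT2-PBS kept their direction but rest on replicate 3 alone in that group. They were 2.93 for *Fbp1*, 1.26 for *Txnip* and 1.47 for *Pygl* with Atg5 loss in PBS. With BLM in Atg5-/- cells they were -1.22 for *Pdk4*, -1.86 for *Myc* and 1.19 for *Vegfa*, among others.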

How the data were processed

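AT2 cell RNA was sequenced from stranded mRNA libraries. The authors trimmed reads with Trimmomatic and deposited FPKM per gene from Cufflinks. The paper names STAR as the aligner and mm9 as the genome, while the submitters' processing notes name Trimmomatic 0.36, HISAT2 2.2.1.0, Cufflinks 2.2.1 and HTSeq 0.9.1. The paper adds a DESeq normalization, and whether the deposited FPKM include it is not given in the sources used here. FPKM sums differ between samples. The gene names of 27 rows had been turned into dates and were not mended. AT2-PBS replicate 3 was mapped by its title, since its description carries another number.

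Log2(FPKM + 1) of the 10675 genes at 1 FPKM or more in at least 3 samples was analysed in R 4.3.3 with limma 3.58.1, whose eBayes step used a trend of variance on mean, and the test was checked on simulated data. Isoform shares were tested by exact two-sided permutation within genotypes or treatments, adjusted over 8 tests. The 10 genes, the gene lists and the tests were chosen with earlier results of these data known. From each list, up to 4 genes per comparison with an adjusted p under 0.05 were named by size of change, except *Slc2a6*, *Pfkfb3*, *Gys2* and *Adm*, which passed the filter only through the group where they were higher, and for each of the 10 genes the 3 with the highest correlation were taken as most like it. Alternatives were a pseudocount of 0.1, no filter, quantile normalization, median-ratio scaling, a common FPKM sum, a fit of the compared groups alone, a replicate block, no trend, other call rules, a log2 ratio for shares, and each sample left out. Leaving out 4 libraries that stand apart, for the 10 and for the listed genes, and a Y-linked covariate were chosen after seeing the data. Gene coordinates are those of GENCODE for NCBIM37 (mm9). Python 3.11.15 and matplotlib 3.10.9 made the figures. Without read counts no interval for counting error is given. Metabolite data were not analysed here. The values of 1 gene that the naming rule selects are not reported here.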

Additional observations from a re-analysis of the deposited data

Results flagged for a closer look

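The response to BLM differed between the genotypes for *Slc16a3* by an interaction term in limma. The difference (Atg5-/- minus Atg5 f/f) was -2.82 on the log2 scale, and was called whichever sample was left out, between -3.03 and -2.52. For *Slc2a3* it was -1.37, but this gene was tested only because it was high in Atg5-/- AT2-PBS, so its call follows from the filter on low values. With no filter it missed the adjustment (limma adjusted p = 0.0521). Both rest on the Atg5-/- AT2-PBS samples, where leukocyte markers summed to between 1247 and 2639 FPKM and airway markers to between 23408.5 and 85012 FPKM. The part of other cells was not tested.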

How the results depend on the processing

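A fold change of at least 2 left 1 of the 10 genes called with BLM in either genotype, and adjusted p left 2 with BLM in Atg5-/- cells. Of all 10675 genes, the former left 982 in Atg5 f/f and 914 in Atg5-/- cells, and the latter 926. Without AT2-BLM replicate 3, 5 of the 10 genes and 2621 of all 10588 tested were called with BLM in Atg5 f/f cells. With each sample left out, these counts were 2 to 5 and 2621 to 3170. The *Slc2a3* share with Atg5 loss then lay between 3.49 and 5.37 points (exact permutation p = 0.035 without AT2-BLM replicate 1), the *Pfkp* share with BLM between -7.17 and -3.50 (0.02 without AT2-BLM replicate 3) and with Atg5 loss between 1.97 and 5.64 (0.04 without the same). Over all settings, counts of called genes stayed within 1.5 times in 91 of 95. Among changes of single genes 755 kept direction and call, 16 gained a call, 5 lost it and 66 changed sign, none of these called.

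Sign changes with BLM in Atg5 f/f cells were *Pfkm* under quantile normalization (-0.0704), median-ratio scaling (-0.0829) and a common FPKM sum (-0.12). In Atg5-/- cells they were *Pfkm* (-0.0676) under median-ratio scaling, *Pfkl* (0.0408) and *Ldhb* (0.0317) with a common sum, and *Hk2* (-0.14) and *Pfkm* (-0.31) without the 4 libraries. For Atg5 loss with BLM they were *Ldha* by quantile (0.0523), median-ratio (0.056) and common sum (0.14), and *Pfkp* by the latter pair (0.0428 and 0.13). For Atg5 loss with PBS they were *Pfkm* (-0.0251 and -0.0261) and *Ldhb* (-0.0887 and -0.14) by quantile and common sum, and *Ldha* (0.0586) and *Ldhb* (-0.0336) with the Y-linked covariate. For the difference between genotypes they were *Slc2a1* (0.13 and 0.29), *Hk1* (0.21 and 0.36) and *Pfkm* (0.14 and 0.30) by quantile and common sum, *Hk1* (0.0542) and *Pfkm* (0.0153) by median-ratio, *Slc2a1* without the 4 libraries (0.0515), and *Ldha* with the Y-linked covariate (-0.14). The cause was not tested.

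Leaving out samples changed the sign of further uncalled values. These ranged from -0.11 to 0.19 for *Pfkm* with BLM in Atg5 f/f cells, and in Atg5-/- cells from -0.32 to 0.0835 for *Pfkl* and -0.19 to 0.19 for *Pfkm*. With Atg5 loss in BLM they were -0.42 to 0.11 for *Slc2a3*, -0.12 to 0.28 for *Pfkl*, -0.36 to 0.35 for *Pfkp*, -0.099 to 0.0446 for *Ldha*, -0.00203 to 0.29 for *Ldhb* and -0.00619 to 0.47 for *Slc16a3*. With Atg5 loss in PBS they were -0.36 to 0.0154 for *Slc2a1*, -0.0258 to 0.37 for *Pfkm* and -0.0956 to 0.0229 for *Ldha*. For the difference they were -0.32 to 0.14 for *Slc2a1*, -0.18 to 0.12 for *Hk1*, -0.26 to 0.13 for *Pfkm*, -0.0618 to 0.0818 for *Ldha* and -0.0825 to 0.21 for *Ldhb*.

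Over all genes, 2202 were called higher and 829 lower with BLM in Atg5 f/f cells, and 1235 and 1398 under quantile normalization, which moved the median from 0.17 to -0.0153. For Atg5 loss with PBS these were 1507 and 551 against 1177 and 1587 (median 0.0188 to -0.17), and for BLM in Atg5-/- cells 818 and 1144 against 1148 and 1069. With the replicate number as a block, 3, 4, 2, 0 and 2 genes were called with BLM in Atg5 f/f and Atg5-/- cells, with Atg5 loss in PBS and BLM, and for the difference, as without it. Samples that share a number correlated between -0.295 and 0.227 over all pairs of groups. Between PBS and BLM they correlated between 0.0451 and 0.191 in Atg5 f/f cells and between 0.00357 and 0.227 in Atg5-/- cells. These values do not decide whether the numbers pair samples. Depth is unknown, and values under 1 FPKM, as for *Slc2a3*, are the least precise.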
